A study of Mus musculus with 6 samples.

Results

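The kinesin genes of the mouse were described in unstimulated bone marrow-derived macrophages (BMDMs) of 2 genotypes, wild type and one bred for deletion of *Scd2* in the myeloid lineage. *Scd2* encodes a stearoyl-CoA desaturase, an enzyme that puts a double bond into saturated fatty acids. The members were all protein-coding genes of the deposited count table whose symbol begins with Kif and a number, 39 of 40481 genes in all. By a list of names, 11 of them were set apart as mitotic kinesins and compared with the other 28. They were *Kif2c*, *Kif4*, *Kif11*, *Kif14*, *Kif15*, *Kif18a*, *Kif18b*, *Kif20a*, *Kif20b*, *Kif22* and *Kif23*. The list need not be complete, and some of the other 28, such as *Kif2a*, may also act in mitosis. The rule on symbols also takes in *Kif1bp*, which encodes a protein that binds kinesins and is not itself a motor.

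The 6 poly(A)-selected libraries fell into 2 genotypes of 3 replicates each. The *Scd2*-m/-m mice carried floxed *Scd2* alleles together with the lysozyme M-Cre transgene, so that Cre is made from the *Lyz2* locus and deletion is limited to myeloid cells and need not reach every one of them. The other 3 libraries are labelled wild type, and the labels do not say whether those mice carried floxed alleles or Cre. Cells of both genotypes were grown from marrow of mice of either sex aged 2 to 5 months in the same CMG-conditioned medium, a source of M-CSF, for 5 to 6 days and then held in a medium with less of it, with no LPS or other stimulus. The labels give no animal, sex, day or batch for a library, so the p-values measure only the spread between these libraries, which may be technical.

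Kinesins are ATP-driven motors that walk along microtubules, mostly towards the growing end, or take subunits off microtubule ends. A mitotic set builds the bipolar spindle, moves and aligns chromosomes and bundles the central spindle at which the cell divides. Genes for this set are typically transcribed late in the cell cycle, so that non-dividing cells hold little of them. Transport kinesins instead carry vesicles, endosomes, mitochondria and ciliary cargo in dividing and resting cells alike, and in macrophages they serve the long-range traffic of membranes to the cell edge.

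Total counts ran from 46285176 to 57629638 per library. Levels are given as CPM, the counts of a gene per 1000000 counts of its library, scaled by TMM factors that ran from 0.979 to 1.02. At this depth the floor of 3 counts lay between 0.0516 and 0.0650 CPM, which covers counting error only. A gene was called when the edgeR quasi-likelihood test gave a Benjamini-Hochberg adjusted p-value (FDR) below 0.05 over the 14778 genes tested. Of these, 9.65% were called higher and 7.84% lower in *Scd2*-m/-m cells, and the median log2 fold change over all tested genes was 0.0039. *Scd2* itself stood at 66.9, 77.8 and 62.7 CPM in replicates 1, 2 and 3 of the wild type, against 59.5, 38.0 and 39.8 CPM in the *Scd2*-m/-m replicates. By qPCR in wells from several experiments, the authors reported a larger loss of *Scd2* transcript than these values show. In these libraries the groups were apart, but the difference was not called (log2 fold change -0.59, FDR 0.100). *Scd2*-m/-m replicate 1 held the most *Scd2* RNA of its group. Each difference below is therefore one between libraries labelled by genotype, in bulk RNA, where a larger share of dividing cells and more RNA per cell cannot be told apart.

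Promoters of late cell cycle genes often carry a cell cycle genes homology region (CHR) and, a short way upstream, a CCAAT box bound by NF-Y. Stretches around the RefSeq transcription start (GRCm38.p6) of 7 mitotic kinesin genes are shown because each holds a CHR within 60 bases before to 25 bases after the start. They are written 5′ to 3′ along the coding strand, and capitals mark the CHR (TTTGAA or TTCGAA, or TTCAAA where it reads on the other strand) and the CCAAT box (CCAAT, or ATTGG where it reads on the other strand).
*Kif11* at chr19:37376322-37376406 (+ strand): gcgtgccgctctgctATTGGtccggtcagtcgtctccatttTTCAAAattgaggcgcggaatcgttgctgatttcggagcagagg
*Kif15* at chr9:122951021-122951105 (+ strand): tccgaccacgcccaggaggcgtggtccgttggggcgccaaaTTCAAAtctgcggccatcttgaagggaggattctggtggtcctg
*Kif4* at chrX:100626005-100626089 (+ strand): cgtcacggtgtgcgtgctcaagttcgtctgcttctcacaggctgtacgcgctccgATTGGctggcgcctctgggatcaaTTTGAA
*Kif22* at chr7:127042396-127042480 (- strand): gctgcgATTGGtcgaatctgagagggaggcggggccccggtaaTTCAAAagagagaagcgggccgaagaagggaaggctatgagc
*Kif18b* at chr11:102925100-102925184 (- strand): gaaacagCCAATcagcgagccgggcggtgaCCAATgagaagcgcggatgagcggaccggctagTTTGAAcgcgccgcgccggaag
*Kif20b* at chr19:34922298-34922382 (+ strand): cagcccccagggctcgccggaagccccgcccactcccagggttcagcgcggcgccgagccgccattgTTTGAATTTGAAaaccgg
*Kif23* at chr9:61946775-61946859 (- strand): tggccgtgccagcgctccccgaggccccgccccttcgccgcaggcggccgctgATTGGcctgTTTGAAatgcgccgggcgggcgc
In *Kif11* and *Kif22* the CCAAT box precedes the CHR and both read on the opposite strand, in *Kif18b* 2 boxes lie upstream of a CHR placed just past the start, and in *Kif20b* the CHR occurs in tandem with no CCAAT box.

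RefSeq windows of 250 bases before to 50 bases after the start were at hand for 31 of the 39 genes, among them 10 of the 11 mitotic kinesins. *Kif13b*, *Kif19a*, *Kif1bp*, *Kif20a*, *Kif21b*, *Kif28*, *Kif5a* and *Kif5b* had no entry. Both strands were searched. A CHR was found in 9 of the 10 mitotic windows, *Kif18a* being the exception, in 11.1% of 18 windows of 14 other tested Kif genes and in 19.2% of all 32851 windows. For *Kif14* the 85 bases around the RefSeq start lie at 136467788-136467872, past the first base of the gene at 136466343. Those of *Kif2c*, a minus-strand gene whose first base is 117182639, lie at 117178748-117178832. The CHR matches nearest these inner starts lie 228 bases before that of *Kif14* and 103 before that of *Kif2c*. A CCAAT box was found in 6 of the 10 mitotic windows, in 27.8% of the windows of other tested Kif genes and in 37.4% of all windows. The same 6 mitotic windows held both, against 7.52% of all windows. An E2F site (TTTCCCGC, TTTGGCGC, TTTCGCGC or TTTGCCGC) was found in *Kif15* and *Kif18a*, 2 of the 10 mitotic windows, and in 2.26% of all windows. In *Kif15* it directly abuts the CHR without sharing a base with it. Outside the mitotic set, *Kif1a* and *Kif24* were the only tested genes with a window that held a CHR, and among 7 windows of genes too low to test *Kif26b* and *Kif27* held one (28.6%). These are matches of letters in one window per start, and binding was not measured.

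**Figure D1:**
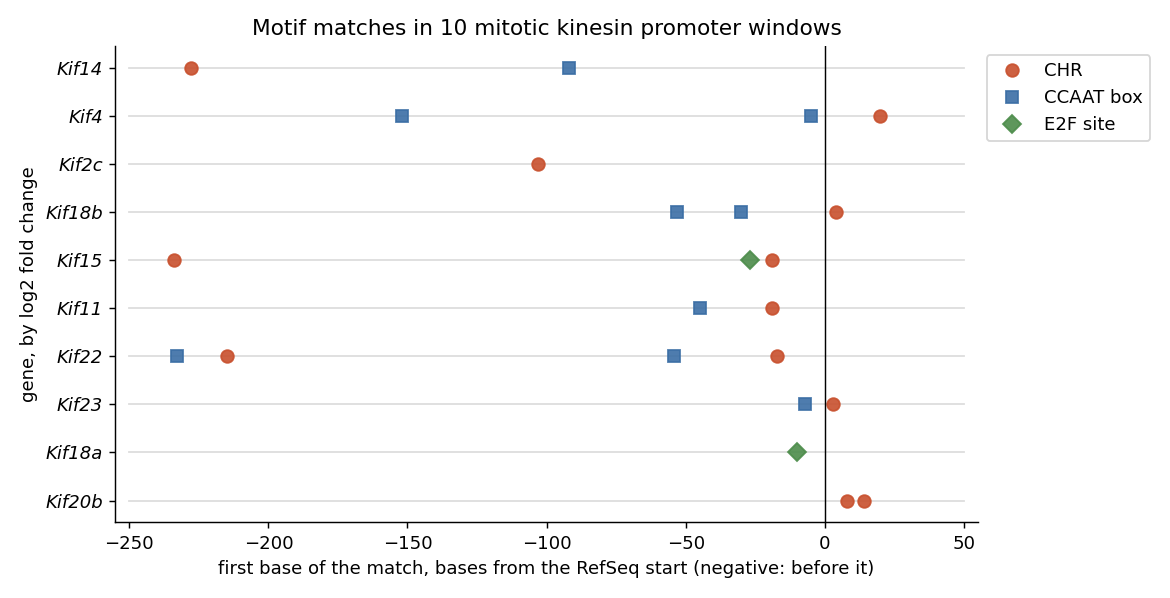
Positions of CHR, CCAAT box and E2F matches in the RefSeq promoter windows of 10 mitotic kinesin genes, ordered from the largest log2 fold change at the top. The x axis gives the first base of each match relative to the start, in bases, and each symbol is 1 match. A CHR match falls within 60 bases before to 25 bases after the start in 7 of the 10 genes.

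All 11 mitotic kinesins were tested and all 11 were called higher in *Scd2*-m/-m cells, against 9.65% of all tested genes. Their median log2 fold change was 2.09, in a range from 0.84 to 3.61. In each of the 11 the lowest *Scd2*-m/-m library lay above the highest wild-type library, an order seen in 17.9% of all tested genes. 6 of them, *Kif14*, *Kif4*, *Kif2c*, *Kif18b*, *Kif20a* and *Kif15*, also passed a log2 fold change of 2, as did 0.629% of all tested genes. Summed over the 11 genes, the level was 16.7, 18.6 and 19.9 CPM in replicates 1, 2 and 3 of the wild type, against 59.4, 56.9 and 56.0 CPM in the *Scd2*-m/-m replicates. The means were 18.4 ± 1.60 and 57.4 ± 1.76 CPM (SD, n = 3), a ratio of 3.12. The sum of the other 28 genes was 1015 ± 6.12 CPM for the wild type, against 973 ± 18.6 CPM for *Scd2*-m/-m, a ratio of 0.958. Mitotic kinesins thus made up 1.78% ± 0.142 of all Kif counts in wild-type BMDMs, against 5.58% ± 0.254 in *Scd2*-m/-m BMDMs. In both genotypes they were the small part of the kinesin transcripts. *Scd2*-m/-m replicate 1, the library of its group with the most *Scd2* RNA, had the highest mitotic sum, and without it all 11 genes were still called higher.

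**Figure D2:**
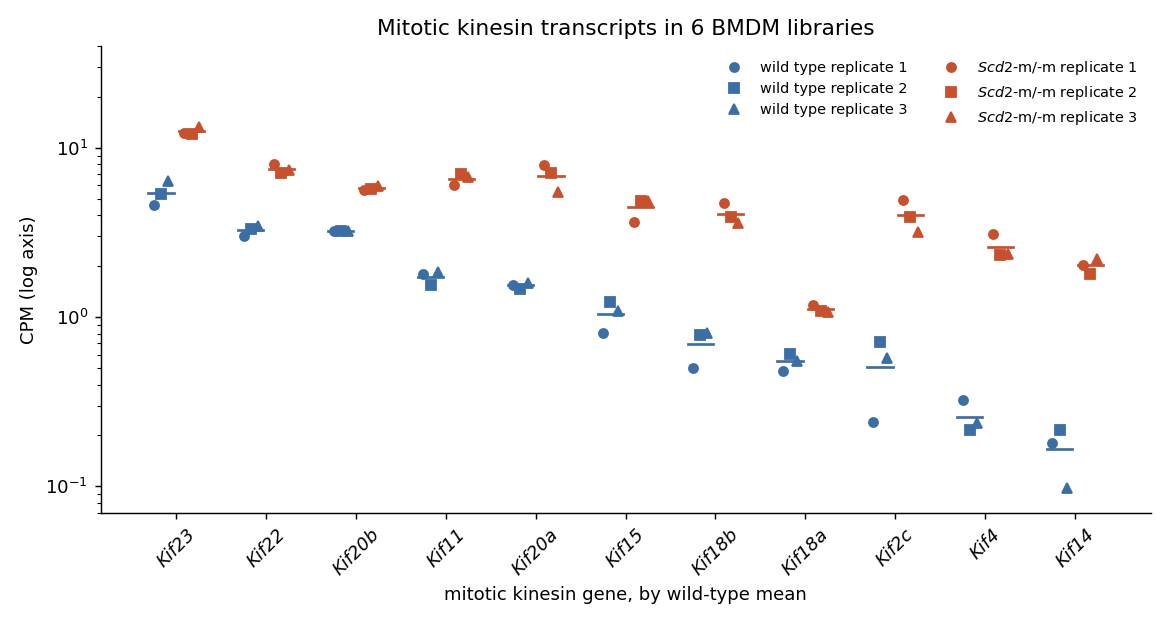
CPM on a log axis of the 11 mitotic kinesin genes in each of the 6 libraries, ordered by their wild-type mean. Blue symbols are wild-type and red symbols *Scd2*-m/-m libraries, with a shape for each replicate, and short lines are group means. In each gene every red symbol lies above every blue one, with the widest gap in *Kif14* (0.166 against 2.02 CPM) and the narrowest in *Kif20b* (3.23 against 5.78 CPM).

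The motors that push spindle poles apart were both higher. *Kif11* (Eg5, chromosome 19:37376403-37421859), a four-headed motor that slides antiparallel microtubules and is needed to make a bipolar spindle, stood at 1.79, 1.54 and 1.85 CPM in wild-type and at 6.02, 6.96 and 6.71 CPM in *Scd2*-m/-m libraries. Its log2 fold change was 1.92 ± 0.14 (SE, FDR 1.18e-06). *Kif15* (chromosome 9:122951046-123018733), which helps to hold the spindle bipolar beside *Kif11*, rose from 0.806, 1.24 and 1.08 CPM to 3.66, 4.85 and 4.83 CPM. The log2 fold change was 2.09 ± 0.20 (FDR 8.37e-06). In both genes replicate 1 was the lowest of the *Scd2*-m/-m libraries and still lay above the wild-type range.

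The chromokinesins, which bind chromatin and push chromosome arms or shape mitotic chromosomes, differed in size. *Kif4* (chromosome X:100625737-100727214), which acts in chromosome condensation and at the central spindle, stood at 0.322, 0.217 and 0.236 CPM in wild-type and at 3.10, 2.33 and 2.37 CPM in *Scd2*-m/-m libraries, a log2 fold change of 3.32 ± 0.26 (FDR 1.94e-06). *Kif22* (Kid, chromosome 7:127027729-127042471), the source of the polar ejection force on chromosome arms, stood at 3.00, 3.32 and 3.44 CPM and at 7.99, 7.08 and 7.40 CPM. Its log2 fold change was 1.20 ± 0.12 (FDR 1.60e-05). *Kif22* was the more abundant of the pair in each library, and the fold was larger in *Kif4*. Exons of *Pdzd11* on the opposite strand cover 15.1% of the exon length of *Kif4*, and the use of strand in counting was not stated. *Pdzd11* was itself called higher, by a log2 fold change of only 0.29 ± 0.09 (FDR 0.0468).

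The motors that shorten microtubules or damp chromosome movement spread widely. *Kif2c* (MCAK, chromosome 4:117159639-117182639), a centromere-bound depolymerase that frees wrongly attached microtubules, stood at 0.242, 0.716 and 0.571 CPM in wild-type and at 4.93, 3.92 and 3.17 CPM in *Scd2*-m/-m libraries. With a log2 fold change of 2.98 ± 0.30 (FDR 2.06e-05) it had one of the widest errors of the set. *Kif18b* (chromosome 11:102905529-102925124), which shortens astral microtubules, rose from 0.504, 0.781 and 0.807 CPM to 4.69, 3.88 and 3.58 CPM, a log2 fold change of 2.54 ± 0.21 (FDR 3.01e-06). In both genes wild-type replicate 1 was the lowest and *Scd2*-m/-m replicate 1 the highest library. *Kif18a* (chromosome 2:109280738-109341747), which damps chromosome oscillation at metaphase, stood at 0.484, 0.607 and 0.551 CPM and at 1.18, 1.09 and 1.07 CPM. Its log2 fold change of 1.02 ± 0.26 had the highest FDR of the 11 (0.0153) and was not called without *Scd2*-m/-m replicate 2 (FDR 0.0518). It was also the one mitotic gene with a promoter window but no CHR in it. *Kif20b*, whose CHR occurs in tandem, had a smaller log2 fold change (0.84), and a link between motif and fold was not tested.

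The motors of the central spindle and of cytokinesis made up the rest. *Kif14* (chromosome 1:136466343-136531511), which brings citron kinase to the midbody, had 9, 10 and 5 counts in the wild-type libraries, against 114, 91 and 129 in those labelled *Scd2*-m/-m. That is 0.181, 0.217 and 0.0984 CPM against 2.04, 1.81 and 2.22 CPM, a log2 fold change of 3.61 ± 0.31 (FDR 3.24e-06). It entered the test only through the *Scd2*-m/-m libraries, since 1 wild-type library alone lay above the filter of 0.196 CPM, and without it 10 of 10 mitotic kinesins were called higher. *Kif20a* (MKLP2, on chromosome 18), which takes the chromosomal passenger complex to the midzone, stood at 1.55, 1.47 and 1.59 CPM and at 7.90, 7.12 and 5.49 CPM. Its log2 fold change was 2.15 ± 0.16 (FDR 1.49e-06). Exons of *Cdc23* on the opposite strand cover 29.3% of its exon length, and *Cdc23* stood at 18.8 ± 1.21 and 17.8 ± 0.601 CPM and was not called (FDR 0.552).

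The remaining kinesin-6 motors were the most abundant mitotic members in wild-type cells with *Kif22*, and they changed the least beside *Kif18a*. *Kif23* (MKLP1, chromosome 9:61915905-61946774), which forms the centralspindlin complex with *Racgap1*, stood at 4.59, 5.31 and 6.41 CPM and at 12.3, 12.1 and 13.2 CPM, a log2 fold change of 1.20 ± 0.12 (FDR 1.40e-05). *Kif20b* (chromosome 19:34922361-34975745), needed for the end of cytokinesis, stood at 3.22, 3.23 and 3.23 CPM and at 5.63, 5.75 and 5.97 CPM, a log2 fold change of 0.84 ± 0.12 (FDR 3.20e-04). Its replicates lay closer together than those of any other mitotic kinesin in wild-type cells. *Kif11* and *Kif20b* lie on the chromosome of *Scd2*, at 6.87 and 9.32 Mb from it, and the flanking DNA of a modified allele was not typed here.

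Per kilobase of exon, mitotic kinesins ranged from 0.0160 to 0.689 CPM in wild-type cells (median 0.195), with *Kif14* lowest and *Kif23* highest, and from 0.113 to 1.58 CPM in *Scd2*-m/-m cells (median 0.880). Genes low in wild-type cells tended to have the larger fold, with a Spearman rho of -0.627 over the 11 genes, but both measures share the wild-type values. With the level over all 6 libraries in its place rho was -0.291. The other 20 tested Kif genes ranged from 0.0217 to 32.9 CPM per kilobase in wild-type cells (median 5.13) and from 0.0221 to 27.8 in *Scd2*-m/-m cells (median 5.17).

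**Figure D3:**
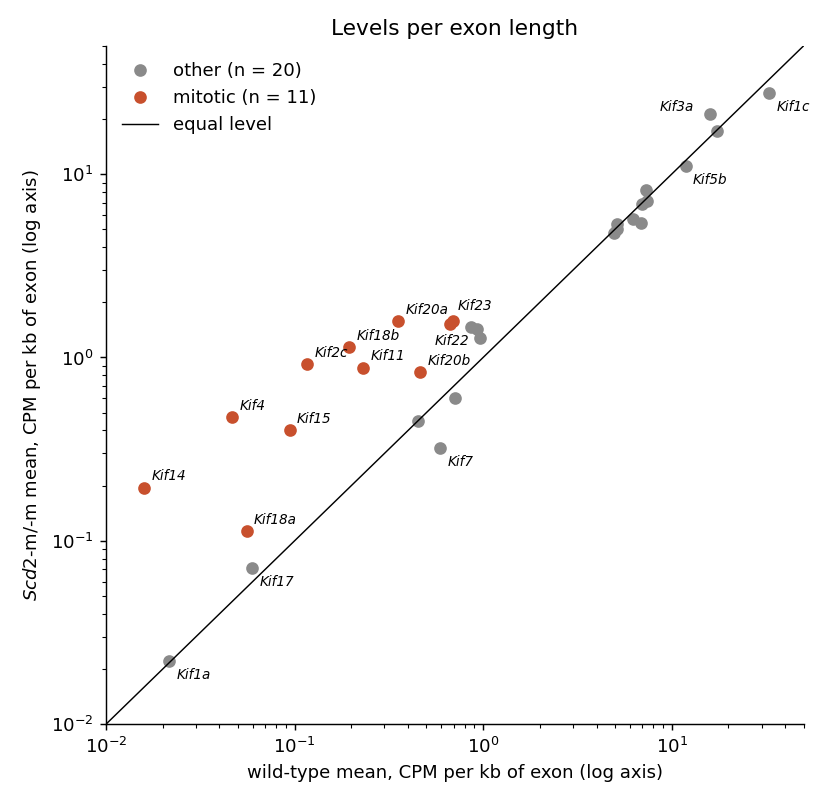
Mean CPM per kilobase of exon in wild-type (x) and *Scd2*-m/-m cells (y), both on log axes, for the 31 tested Kif genes. Each point is a gene, red for the 11 mitotic and grey for the 20 other genes, and the line marks equal levels. The red points lie above the line at wild-type levels from 0.0160 to 0.689, while most grey points lie near it, up to *Kif1c* at 32.9. Among the grey points *Kif7* lies below the line (0.592 and 0.321), and *Kif5c* (0.867 and 1.47) and *Kif9* (0.923 and 1.43) lie above it.

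Among the other 28 genes, 20 were tested and their median log2 fold change was -0.02, in a range from -0.88 to 0.76. Of the 20, 4 were called higher (*Kif5c*, *Kif9*, *Kif19a* and *Kif3a*) and 3 lower (*Kif7*, *Kif13a* and *Kif1c*), against background shares of 9.65% and 7.84% of all tested genes. None passed a log2 fold change of 2. The filter removed 8 genes, *Kif12*, *Kif21a*, *Kif26a*, *Kif26b*, *Kif27*, *Kif28*, *Kif2b* and *Kif6*, which had between 0 and 17 counts over all 6 libraries. *Kif28* was at 0 in each, which allows up to 3 counts per library.

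**Figure D4:**
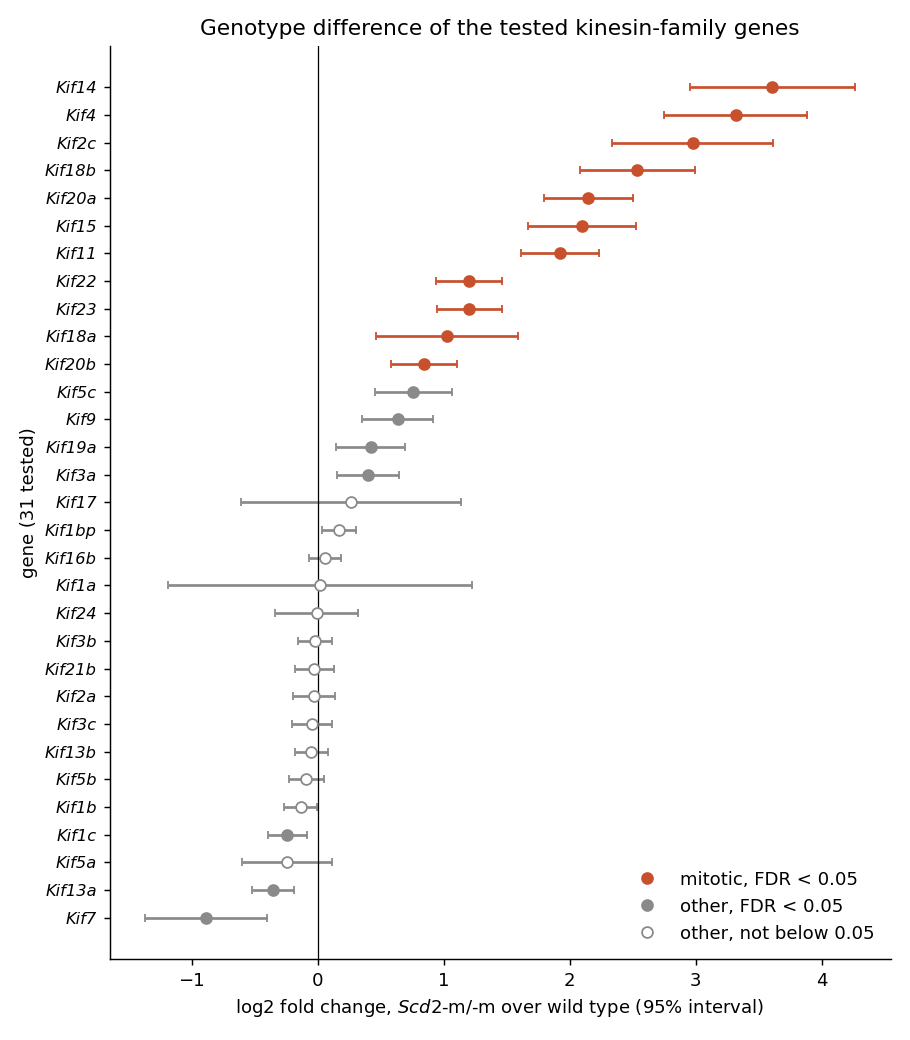
Log2 fold change of *Scd2*-m/-m over wild type with its 95% interval for the 31 tested Kif genes, in order of size. Red points are mitotic and grey points other genes, and filled points have an FDR below 0.05. The 11 mitotic genes take the top 11 places, from *Kif20b* at 0.84 to *Kif14* at 3.61, and *Kif5c* at 0.76 follows.

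The kinesin-1 heavy chains, the classical motors of vesicles and mitochondria, were led by *Kif5b*. It stood at 96.8, 94.0 and 93.3 CPM in wild-type and at 80.9, 94.2 and 91.7 CPM in *Scd2*-m/-m libraries, and the groups overlapped (log2 fold change -0.09, 95% interval -0.23 to 0.05). *Kif5c*, an isoform best known from neurons, stood at 4.96, 5.96 and 7.65 CPM and at 9.48, 10.5 and 11.4 CPM, a log2 fold change of 0.76 ± 0.14 (FDR 0.00220). Counts of *Kif5c* per 100 of *Kif5b* were 6.56 ± 1.55 and 11.8 ± 0.624 (SD, n = 3), with no overlap between groups, and that ratio was not tested. *Kif5a*, the third isoform, was not called (log2 fold change -0.24, 95% interval -0.60 to 0.11), and lies 9.94 Mb from *Lyz2*, the locus of the Cre transgene.

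Kinesin-2 is a trimer of *Kif3a*, either *Kif3b* or *Kif3c*, and the adaptor *Kifap3*, and carries endosomal and ciliary cargo. *Kif3a* stood at 48.9, 57.3 and 66.5 CPM in wild-type and at 67.2, 78.8 and 82.2 CPM in *Scd2*-m/-m libraries, a log2 fold change of 0.40 ± 0.11 (FDR 0.0316). Its groups were barely apart, and its call was lost without wild-type replicate 2 or without *Scd2*-m/-m replicate 2 or 3 (FDR 0.0959 to 0.141). *Kif3b* stood at 95, 103 and 97.7 CPM and at 93.4, 93.3 and 104 CPM, with overlapping groups and a log2 fold change of -0.02 (95% interval -0.16 to 0.11). *Kif3c* was not called either (log2 fold change -0.04, with 35.3% of its exon length under the antisense *1110002L01Rik*), and *Kif17*, a kinesin-2 that works as a homodimer, lay at 0.239 to 0.412 CPM with an interval too wide to place it (-0.61 to 1.13).

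The kinesin-3 motors carry endosomes, lysosomes and other vesicles, and they held the gene with the highest level per exon length in the whole family. *Kif1c*, which acts on Golgi-derived vesicles and on the podosomes of macrophages, stood at 257, 237 and 224 CPM in wild-type and at 210, 215 and 183 CPM in *Scd2*-m/-m libraries. The log2 fold change was -0.24 ± 0.07 (FDR 0.0354), and the call was lost without wild-type replicate 1 or 2 or *Scd2*-m/-m replicate 2 or 3 (FDR 0.0669 to 0.124). *Kif13a*, a carrier of recycling endosomes, fell from 49.2, 56.2 and 62.5 CPM to 43.6, 43.6 and 43.9 CPM, a log2 fold change of -0.36 ± 0.08 (FDR 0.00624). *Kif1b*, *Kif13b* and *Kif16b* were not called, with log2 fold changes of -0.14, -0.05 and 0.05 at 46.5 to 110 CPM in wild-type cells. *Kif1a*, a motor of synaptic vesicle precursors, lay near the floor at 0.108 to 0.358 CPM.

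Members of ciliary and centriolar families were scarce. *Kif7*, a regulator of Hedgehog signaling in cilia, fell from 3.67, 2.43 and 2.05 CPM to 1.65, 1.45 and 1.31 CPM, a log2 fold change of -0.88 ± 0.23 (FDR 0.0151). The call was lost without wild-type replicate 1 or *Scd2*-m/-m replicate 2 or 3 (FDR 0.0601 to 0.0710). An antisense gene, *9330171B17Rik*, covers 19.1% of its exon length and had 0 counts. *Kif9*, which acts on podosomes in macrophages and is part of motile cilia, stood at 3.69, 3.73 and 4.49 CPM and at 5.55, 6.23 and 6.69 CPM, a log2 fold change of 0.63 ± 0.13 (FDR 0.00441). *Kif19a*, a depolymerase that sets the length of cilia, stood at 3.85, 3.66 and 4.17 CPM and at 5.47, 4.89 and 5.26 CPM, a log2 fold change of 0.42 ± 0.13 (FDR 0.0339). Its call held in only 1 of the 6 fits that left out a library, that without wild-type replicate 3, and the FDR in the other 5 was 0.0699 to 0.135. *Kif24*, which acts at centrioles, and *Kif21b*, which holds back microtubule growth, were not called (log2 fold changes -0.01 and -0.03). Unlike these, *Kif21b* was abundant, at 84.9 ± 5.62 CPM in wild-type cells. *Kif5c*, *Kif9* and *Kif13a* kept their calls whichever library was left out.

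The 5 other Kif genes with the highest mean level per kilobase of exon were *Kif1c*, *Kif3a*, *Kif3b*, *Kif5b* and *Kif1bp*. *Kif1bp* stood at 35.0, 36.8 and 35.1 CPM in wild-type and at 39.4, 38.8 and 42.1 CPM in *Scd2*-m/-m libraries. The groups did not overlap, and the log2 fold change of 0.17 ± 0.06 was not called (FDR 0.0815). Together with *Kif16b* it was one of the 2 genes outside the mitotic set whose groups were apart without a call.

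In 4 kinesin families mitotic and other members could be set side by side within each library, which does not depend on scaling between libraries. *Kif14* counts per 100 of the 6 other kinesin-3 genes were 0.0302 ± 0.0111 in wild-type libraries, against 0.416 ± 0.0540 in *Scd2*-m/-m libraries (SD, n = 3). *Kif4* per 100 of the 4 other kinesin-4 genes went from 0.293 ± 0.0434 to 3.05 ± 0.242. *Kif2c* per 100 of the 3 other kinesin-13 genes, mostly *Kif2a*, went from 1.39 ± 0.642 to 11.4 ± 3.36. The groups did not overlap in any of these families. *Kif2a*, a close relative of *Kif2c* in the same family that may itself act in mitosis, was not called (32.8 ± 1.28 and 32.1 ± 3.18 CPM). The 95% interval of its log2 fold change was -0.20 to 0.14, though 19.2% of its exon length lies opposite exons of *Dimt1*. *Kif18a* and *Kif18b* together per 100 counts of *Kif19a* went from 32.0 ± 6.12 to 99.1 ± 9.89, so that the mitotic pair about equalled *Kif19a* in *Scd2*-m/-m cells. These ratios were read from genes whose own differences are given above and were not tested.

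**Figure D5:**
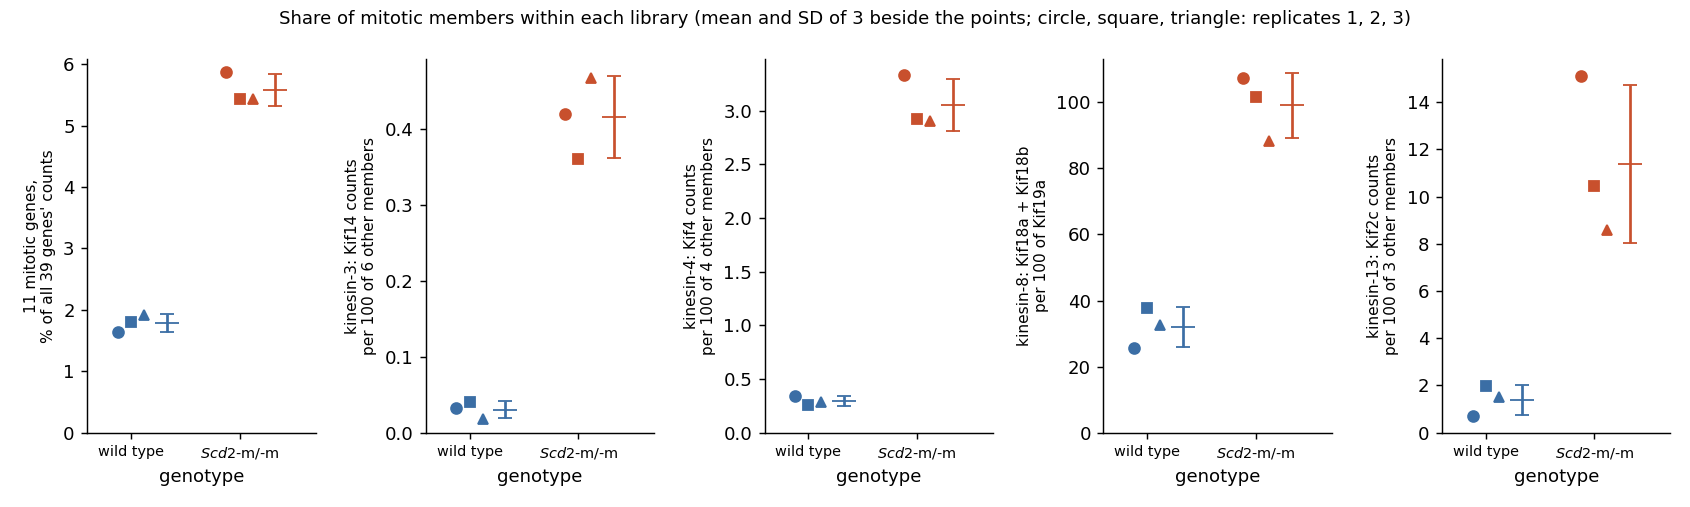
Counts of mitotic members as a percent of all Kif counts (left) and per 100 counts of the other members of the kinesin-3, kinesin-4, kinesin-8 and kinesin-13 families, on linear axes from 0. Points are the 3 libraries of each genotype, and the bar beside them is the mean and SD. In all 5 panels the *Scd2*-m/-m points lie above the wild-type points, by the largest ratio in kinesin-3 (13.8) and the smallest in kinesin-8 (3.10).

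Of 5 tested kinesin heavy chains named otherwise, 3 were called higher and none lower, against 9.65% and 7.84% of all tested genes. *Cenpe*, the kinetochore motor that brings chromosomes to the metaphase plate, stood at 3.53 ± 0.207 and 9.51 ± 0.397 CPM (SD, n = 3), and its log2 fold change was 1.43 ± 0.11 (SE, FDR 1.78e-06). *Kifc1*, a minus-end motor that focuses spindle poles, stood at 1.86 ± 0.0575 and 5.87 ± 0.650 CPM (log2 fold change 1.66 ± 0.15, FDR 4.27e-06). *Kifc5b* (0.71 ± 0.19, FDR 0.0214) is a near-identical copy of *Kifc1*, and the counting may have split reads between them. *Kifc2* and *Kifc3*, which serve transport, were not called.

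Mitotic kinesins work with bundlers, kinases and kinetochore proteins of the spindle. Of 24 spindle and central spindle genes tested, 23 were called higher and none lower, the median log2 fold change being 1.67, against 9.65% of all tested genes called higher. *Ttk* entered the test only through the *Scd2*-m/-m libraries, and without it 22 of 23 were called higher. *Prc1*, the bundler that recruits *Kif4* to the central spindle, stood at 1.94 ± 0.0533 and 8.45 ± 0.245 CPM (log2 fold change 2.12 ± 0.12, FDR 1.02e-07). *Birc5* (survivin), a subunit of the chromosomal passenger complex, stood at 1.06 ± 0.170 and 6.82 ± 0.929 CPM (2.68 ± 0.17, FDR 2.91e-07), and *Anln*, a scaffold of the contractile ring, at 2.67 ± 0.246 and 8.30 ± 0.476 CPM (1.64 ± 0.13, FDR 1.49e-06). The exception was *Incenp*, another subunit of that complex, with a log2 fold change of 0.05 ± 0.07 (FDR 0.694), named after its value was seen. *Cenpe* and *Kifc1* are on this list as well.

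Of 17 tested kinesin light chains and adaptors, 2 were called higher (11.8%, near the 9.65% of all tested genes) and none lower, the median log2 fold change being 0.02. They were *Arl8b*, a lysosomal GTPase that recruits kinesin-1 and kinesin-3, at 145 ± 4.88 and 167 ± 7.62 CPM (log2 fold change 0.21 ± 0.06, FDR 0.0263), and *Kifap3*, the subunit that joins cargo to kinesin-2, at 23.2 ± 1.03 and 27.9 ± 2.24 CPM (0.26 ± 0.08, FDR 0.0274). The number of calls in this list was 0 without wild-type replicate 2 or 3 or without *Scd2*-m/-m replicate 3. Cytoplasmic dynein is the motor that runs the other way, to the minus end. Of 20 tested dynein and dynactin genes, 1 was called higher (*Dynlt3*, a light chain, 0.19 ± 0.06, FDR 0.0441) and 3 lower, against 9.65% and 7.84% of all tested genes, and the median log2 fold change was -0.0033. The 3 lower were *Bicd2*, a cargo adaptor (-0.25 ± 0.06, FDR 0.0103), *Nde1*, a dynein regulator that also acts in mitosis (-0.24 ± 0.06, FDR 0.0136), and *Dynll1*, another light chain (-0.32 ± 0.09, FDR 0.0357). The list had no gene called higher with RLE factors, with DESeq2 or with every gene kept that had a count. It had 1 call in all without wild-type replicate 2 or *Scd2*-m/-m replicate 2, and 2 without *Scd2*-m/-m replicate 3.

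Of 16 proliferation markers tested, 10 were called higher and none lower, against 9.65% and 7.84% of all tested genes. The median log2 fold change was 0.72. Of the 10, *Pcna* (0.31) and *Mcm5* (0.41) had the smallest log2 fold changes. The 6 not called were *Mcm2*, *Ccnd1*, *E2f1*, *Lin9*, *Lin54* and *E2f4*, with log2 fold changes from -0.11 to 0.19. *Ccna2* (cyclin A2) stood at 1.14 ± 0.100 and 10.1 ± 0.859 CPM (log2 fold change 3.13 ± 0.14, FDR 8.43e-09) and *Ccnb1* (cyclin B1) at 1.63 ± 0.0373 and 7.76 ± 1.03 CPM (2.25 ± 0.14, FDR 2.91e-07). *Top2a*, a topoisomerase of replicated chromosomes, stood at 7.86 ± 1.66 and 26.3 ± 0.545 CPM (1.74 ± 0.12, FDR 7.91e-07), and *Mki67*, the Ki-67 antigen of cycling cells, at 27.8 ± 2.85 and 57.1 ± 1.79 CPM (1.04 ± 0.08, FDR 1.04e-06). The mitotic kinesins thus spanned fold changes on both sides of *Mki67*.

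Markers of other cells that marrow cultures can hold also moved with genotype. The counts of called genes in each list stand beside 9.65% called higher and 7.84% called lower among all tested genes. In the macrophage list 8 genes were tested, of which 4 were lower (*Adgre1*, *Csf1r*, *Mertk* and *Lyz2*) and 1 higher (*Cd68*). The summed level was 37461 to 38369 CPM for the wild type, against 21448 to 21968 CPM for *Scd2*-m/-m, with *Lyz2* the largest part. *Lyz2*, the locus of the Cre transgene, stood at 22751 ± 584 and 9030 ± 357 CPM (SD, n = 3). The part of the Cre allele in this difference was not tested. Log2 fold changes were -0.49 for *Adgre1*, -0.38 for *Csf1r*, -0.33 for *Mertk* and 0.22 for *Cd68*. In the monocyte and progenitor list 6 of 11 tested genes were higher and none lower (summed 10.9 to 17.7 and 54.6 to 60.8 CPM, mostly *Ly6a*). Of its tested genes 4 entered only through the *Scd2*-m/-m libraries, and without them 4 of 7 were higher. Of the 11 tested genes, 10 had a positive log2 fold change, *Cd34* being the exception (-0.50, FDR 0.570). Among progenitor markers *Flt3* was called higher (log2 fold change 1.86, FDR 0.0147). *Kit* (log2 fold change 0.99, FDR 0.116) was not called, though its groups were apart. *Flt3* and *Kit* are both among the 4 genes just described, and *Myb* was too low to test. The neutrophil list had 5 of 7 higher (24.0 to 27.9 and 37.5 to 48.1 CPM), the B cell list 2 of 4 higher, *Cd79a* and *Cd79b* (54.1 to 119 and 83.6 to 116 CPM) and the dendritic cell list 2 of 6 higher, *Flt3* and *Ccr7* (1.31 to 1.91 and 2.21 to 3.41 CPM). Both of the latter entered the test only through the *Scd2*-m/-m libraries, as did 4 of the 6 tested dendritic cell genes, and *Flt3* is also on the monocyte and progenitor list. The T and NK cell list had 0 of 1 called (0.846 to 0.867 and 0.645 to 0.895 CPM, *Ncr1* at 0), the erythroid list 0 of 2 (0.520 to 0.705 and 0.602 to 0.860 CPM) and the stromal list 1 of 5, the endothelial *Pecam1*, which was lower (4.27 to 5.40 and 3.18 to 3.64 CPM). *Adgre1*, *Csf1r* and *Mertk*, which define macrophages, were detected in every library. The part of these cells in the kinesin result was not tested.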

How the data were processed

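Reads of 6 poly(A)-selected libraries were aligned by the authors with STAR to GRCm38, and whole-number counts per gene were deposited without normalization, with a counting tool and strand setting not given in the sources used here. A second deposited table, with the authors' own log2 fold changes, p-values and log2 CPM, was not used.

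The table had 40757 entries, of which 276 repeats of a gene were removed. GENCODE M21 gave coordinates and exon length for 99.7% of the remaining 40481 genes. Genotypes were compared with edgeR 4.0.16 in R 4.3.3 (filterByExpr, TMM, glmQLFit with robust estimation, glmQLFTest, no covariate) over 14778 genes, after a test on simulated counts. Total counts ranged from 46285176 to 57629638, which leaves few counts for a gene below 1 CPM. Among counts of 1 to 20, 60.9% to 64.9% were even, and the unit of 1 count is not stated.

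The members and lists were chosen with earlier results of these data known. Named were all mitotic kinesins, every other Kif gene called, the 5 others with the highest level per kilobase, genes removed by the filter, *Scd2*, up to 3 called genes of smallest p in each partner list, *Mki67* and *Top2a*. Uncalled relatives, uncalled proliferation markers, *Pcna*, *Mcm5*, overlapping genes, *Incenp*, *Dynlt3* and cell markers were named after their values were seen. One cell marker of the lists is not reported here. Alternatives were RLE and upper-quartile factors, DESeq2 1.42.0, limma-voom (limma 3.58.1), other filters, halved counts, a replicate block, leaving out each library and other thresholds.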

Additional observations from a re-analysis of the deposited data

How the results depend on the processing

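The 11 calls among mitotic kinesins became 10 with at least 10 counts required in every library (*Kif14* was then not tested), without *Scd2*-m/-m replicate 2, and at an FDR below 0.01, and 6 when a log2 fold change above 2 was also asked. They were 11 under all other alternatives. The 7 calls among other Kif genes became 3 at an FDR below 0.01, 0 with the fold threshold, and 3 to 7 when a library was left out. Over all genes, 2585 calls became 1331 and 98 under those thresholds and 1440 to 2567 when a library was left out. Leave-one-out counts were 0 to 2 for light chains and adaptors and 1 to 3 for dynein and dynactin. The log2 fold change of *Scd2* passed the FDR with limma-voom (-0.617, FDR 0.0105) and without *Scd2*-m/-m replicate 1 (-0.830, FDR 8.87e-05), in a leave-one-out range of -0.830 to -0.476. The summed mitotic ratio of 3.12 ranged from 2.98 to 3.25. *Kif3b*, never called, changed sign without wild-type replicate 2 (0.00786) and without *Scd2*-m/-m replicate 1 (0.00339) or 2 (0.00503), in a leave-one-out range of -0.0757 to 0.00786. Of 293 values of named genes under alternatives, 274 kept direction and call, 16 lost the call and 3 changed sign.

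Deviations of same-numbered libraries correlated at 0.053, -0.020 and 0.040, and those of differently numbered libraries at -0.074 to 0.041. Counting noise enters these correlations, so they cannot show whether the replicate numbers pair the libraries. With the replicate block 2974 genes were called, against 2585 without it, and again 11 mitotic and 7 other Kif genes. The SE of *Kif3a* was 0.060 with the block and 0.111 without it. Depth limits the genes below 1 CPM, such as *Kif1a* and *Kif17*, whose intervals span more than a log2 unit.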
